A study of Mus musculus with 2 samples.

Results

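The Mir302 and Mir367 cluster is a run of 5 microRNA genes, Mir302b, Mir302c, Mir302a, Mir302d and Mir367, which are best known from pluripotent cells. The genes are taken by symbol, with no condition on their read counts, and all 5 were found among the 1973 counted miRNA genes through their Ensembl identifiers. Their levels were measured by sequencing of small RNA from the facial prominence of mouse embryos, the tissue that builds the face and jaws, at embryonic day 15.5. The series holds 1 group of 2 biological replicates of strain B6NCrl. Replicate 1 was made from 78 embryos and replicate 2 from 62, each a mixed pool of male and female embryos labelled healthy, and the labels name no treatment or altered allele. Each library is therefore an average over many embryos and over every cell type of the dissected tissue.

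The 5 hairpins of the cluster are cut from a common primary transcript. The 3′ arms of the Mir302 hairpins are the main products known from embryonic stem cells and the early epiblast, where they promote passage through the cell cycle and help to keep the pluripotent state. The cluster is switched off as cells differentiate, while let-7 miRNAs accumulate. A second cluster, Mir290 to Mir295, carries miRNAs of the same family, is active earlier in the embryo and is the other hallmark of mouse embryonic stem cells. Mir367 belongs by its seed, the stretch of bases that pairs with target mRNAs, to a different family, that of Mir25 and Mir92.

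The genes lie within 580 bases on chromosome 3 of mm10, all on the plus strand. Mir302b spans 127545228 to 127545301, Mir302c 127545363 to 127545430, Mir302a 127545496 to 127545564, Mir302d 127545624 to 127545689 and Mir367 127545733 to 127545807. The gaps between neighbouring hairpins are 61, 65, 59 and 43 bases. All 5 lie in an intron of Larp7, a gene for an RNA-binding protein that runs on the opposite strand from 127536714 to 127553349, and none overlaps an exon of it or any gene on their own strand. The nearest other counted miRNA gene, Gm24515, is 2138326 bases away and had 0 reads in both libraries.

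The hairpins are printed in genomic order, 5′ to 3′, to show how much the 4 Mir302 genes share and how different Mir367 is. Capitals mark the letters AAGUGCU in the Mir302 hairpins and AUUGCAC in Mir367, each found once in its hairpin. They are bases 2 to 8, the seed, of the listed 3′ arms of Mir302b, Mir302d and Mir367. The listed 3′ arm of Mir302c starts at the first capital, so its bases 2 to 8 read AGUGCUU, and no 3′ arm of Mir302a was used here. The sequences are those of RefSeq on GRCm38.p6, which held a hairpin for 5 of the 5 genes.
Mir302b: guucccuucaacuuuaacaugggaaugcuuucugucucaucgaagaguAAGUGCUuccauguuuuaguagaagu
Mir302c: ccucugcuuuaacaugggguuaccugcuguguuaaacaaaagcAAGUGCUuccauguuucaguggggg
Mir302a: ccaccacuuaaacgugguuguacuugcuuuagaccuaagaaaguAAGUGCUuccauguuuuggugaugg
Mir302d: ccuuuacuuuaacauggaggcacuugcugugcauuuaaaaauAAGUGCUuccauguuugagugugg
Mir367: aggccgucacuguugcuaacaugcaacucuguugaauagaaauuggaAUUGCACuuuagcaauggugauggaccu

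The likeness of the Mir302 hairpins bears on the counts, because a read that fits several places was not given to a gene. The longest stretch that Mir302a and Mir302b have in common is 20 bases, and in Mir302b it starts just before the 3′ arm and ends inside it. Mir302d shares 17 bases with Mir302a and with Mir302b, and Mir302c shares 16 bases with each of the other 3. Reads from these shared stretches alone cannot be assigned, so the levels of the Mir302 genes hold for reads mapped to 1 place and may be too low, Mir302a and Mir302b included. Mir367 shares at most 11 bases with any other annotated miRNA hairpin. The part that such unassigned reads play in the levels was not tested.

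Replicate 1 held 2978463 reads assigned to miRNA genes and replicate 2 held 6408008, a 2.15-fold difference in depth. Reads that fitted several places were 30.6% and 29.7% of all reads. CPM are reads scaled to a common library of 1000000 miRNA reads. A count of 3 reads, the limit that a count of 0 allows, equals 1.00 CPM in the shallower replicate 1 and 0.470 CPM in replicate 2. Of the 1973 genes, 333 had at least 10 reads in each library and are called detected here, and 1463 had at most 3 reads in each. The labelled tissue was checked by summed marker genes: epithelial markers stood at 97494 to 126171 CPM, and mesenchymal, cartilage and striated muscle markers between 5967 and 17053 CPM. Blood, neural, liver and eye markers were between 30.4 and 746 CPM. The neural sum came almost wholly from Mir137, with 193 and 204 of 196 and 210 CPM in replicates 1 and 2. Marker levels, too, hold for reads mapped to 1 place and may be too low. The part of unassigned reads in them was not tested, so a low marker sum does not show that a cell type is scarce.

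The cluster was present at a low level, and 3 of its 5 genes carried nearly all of it. Mir302a, Mir302d and Mir302b were each between 27.4 and 49.5 CPM, Mir302c was at 5.69 and 3.13 CPM, and Mir367 had no read at all. The 5 genes together had 328 reads in replicate 1 and 843 in replicate 2, or 109.7 and 132 CPM, with a mean of 120.9 ± 15.8 CPM (SD, n = 2). This was 0.0110% of the miRNA reads in replicate 1 (95% exact Clopper-Pearson interval 0.00985 to 0.0123) and 0.0132% in replicate 2 (0.0123 to 0.0141). By their mean level, 191 single genes stood above the whole cluster. In a bulk sample, few cells with much of a miRNA and many cells with little of it cannot be told apart.

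Mir302a, in the middle of the cluster, had 111 reads in replicate 1 and 316 in replicate 2. These counts stood for 37.1 and 49.5 CPM, with a mean of 43.3 ± 8.73 CPM (SD, n = 2). It was the highest member by mean level and ranked 237 among the 333 detected genes, so that 28.8% of them were lower. All of its reads lay on its own strand, as did those of the other Mir302 genes.

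Mir302d, the last Mir302 hairpin before Mir367, had 118 and 282 reads, or 39.5 and 44.2 CPM, with a mean of 41.8 ± 3.31 CPM (SD, n = 2). Its values lie between those of Mir302a, so the levels of both genes overlap. Reads of Mir302a over those of Mir302d gave a ratio of 0.941 in replicate 1 (95% counting interval 0.719 to 1.23) and 1.12 in replicate 2 (0.951 to 1.32). The order of these genes was thus opposite in the libraries, and both intervals hold a ratio of 1. Per 100 bases of hairpin, Mir302a had a mean of 62.8 CPM and Mir302d of 63.4 CPM, which puts Mir302d first. The RNA is labelled with a size range below 30, shorter than any hairpin, so scaling by hairpin length may not suit these reads.

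Mir302b, the first hairpin, had 82 reads in replicate 1 and 225 in replicate 2. Its level was 27.4 and 35.2 CPM, with a mean of 31.3 ± 5.52 CPM (SD, n = 2), or 42.3 CPM per 100 bases. Both of its values lay below both values of Mir302a and of Mir302d. Within a library, Mir302a had 1.35 times the reads of Mir302b in replicate 1 (95% counting interval 1.01 to 1.82) and 1.40 times in replicate 2 (1.18 to 1.67). For Mir302d over Mir302b the ratios were 1.44 (1.08 to 1.93) and 1.25 (1.05 to 1.5).

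Mir302c, between Mir302b and Mir302a, stood well below its neighbours although its hairpin is of like length (68 bases, against 66 to 74 for the other Mir302 genes). It had 17 reads in replicate 1 and 20 in replicate 2, which are 5.69 and 3.13 CPM, with a mean of 4.41 ± 1.81 CPM (SD, n = 2) or 6.49 CPM per 100 bases. It ranked 324 among the 333 detected genes. Mir302a had 6.53 times its reads in replicate 1 (95% counting interval 3.90 to 11.6) and 15.8 times in replicate 2 (10.1 to 26.2). Mir302b, its neighbour on the other side, had 4.82 times (2.84 to 8.68) and 11.3 times its reads (7.11 to 18.8). Both values of Mir302c were thus far below every value of Mir302a, Mir302b and Mir302d.

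Mir367, the last hairpin and the one with the separate seed, had 0 reads in both libraries, on either strand. This allows up to 1.00 CPM in replicate 1 and up to 0.470 CPM in the deeper library. Mir302d, which ends 43 bases before Mir367, had 39.3 times this limit of 3 reads in replicate 1 and 94 times in replicate 2. Mir302c had 5.67 and 6.67 times the limit. These folds leave out the counting error of the Mir302d and Mir302c reads. A count of 0 was common in the table as a whole, with 1265 of the 1973 genes at 0 in both libraries. The statement covers reads assigned to the annotated gene, and whether any Mir367 reads were among those set aside was not tested.

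**Figure D1:**
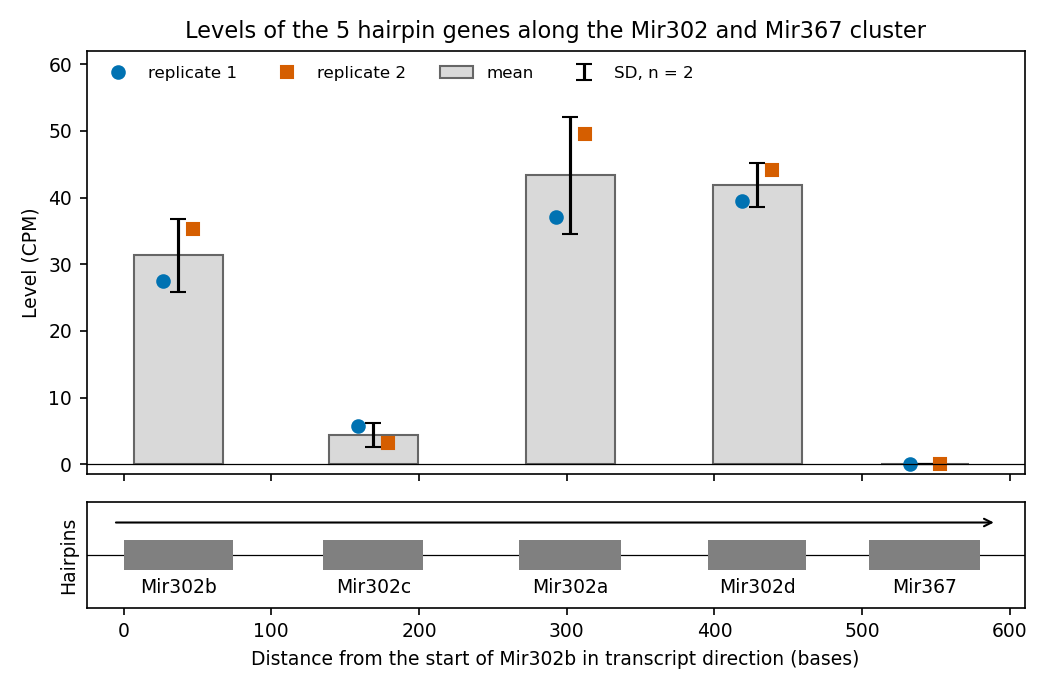
Level of each hairpin gene in CPM (upper panel: grey bars are means, error bars SD of 2 libraries, points the libraries) above its place along the cluster in bases from the start of Mir302b (lower panel, arrow in the direction of transcription). Mir302b, Mir302a and Mir302d lie between 27.4 and 49.5 CPM, Mir302c at 3.13 and 5.69 CPM, and Mir367 at 0 in both libraries.

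Both libraries divided the cluster's reads among its genes in shares whose counting intervals overlap. Mir302a took 33.8% of the 328 reads in replicate 1 (95% exact interval 28.7 to 39.2) and 37.5% of the 843 reads in replicate 2 (34.2 to 40.9). Mir302d took 36.0% (30.8 to 41.4) and 33.5% (30.3 to 36.7), and Mir302b took 25% (20.4 to 30.1) and 26.7% (23.7 to 29.8). These 3 genes together supplied 94.8% and 97.6% of the reads.

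Mir302c took 5.18% (3.05 to 8.17) in replicate 1 and 2.37% (1.46 to 3.64) in replicate 2. For each of the 4 Mir302 genes the intervals of the libraries overlap, for Mir302c only between 3.05 and 3.64%. Such overlap does not show that the shares are equal, and no test compared the shares between the libraries. For Mir367 the share was 0 of 328 and 0 of 843 reads, with upper bounds of 1.12% and 0.437%. All of these intervals cover counting error only, since reads without molecular identifiers are not independent molecules.

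**Figure D2:**
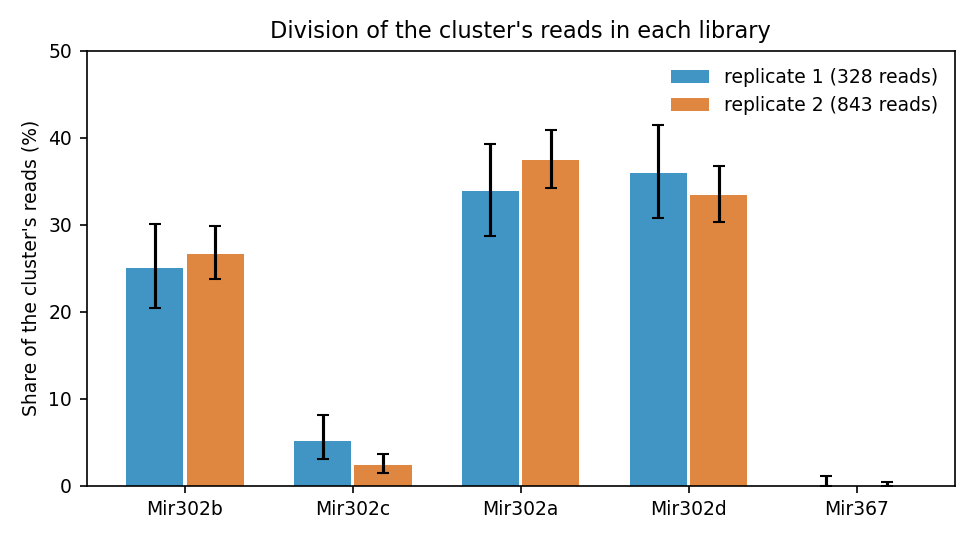
Share of the cluster's reads in percent for each gene, in genomic order, in replicate 1 (328 reads) and replicate 2 (843 reads), with 95% exact binomial intervals. Mir302a, Mir302d and Mir302b take 94.8% and 97.6% together. The intervals of the libraries overlap for each gene, which is not a test of equal shares.

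Replicate 2 was then set against replicate 1, to see how far pools of the same tissue differ in these genes. Mir302a was the 1 member of the 4 tested that passed, with a higher level in replicate 2. Its log2 ratio was 0.41 (95% counting interval 0.10 to 0.74, exact binomial adjusted p = 0.0179 over all 333 tested genes). The test called 53.5% of all tested genes, 25.8% as higher in replicate 2 and 27.6% as higher in replicate 1. A count of 1 call among 4 members is too small to be set apart from that share. Genes with more reads are also called more readily, and the tested members had between 17 and 316 reads in a library. With 1 library on each side, the test compares these libraries and not conditions, and its error is that of counting. The smallest one-sided p that permuting the 2 libraries could give is 0.5.

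The other tested members did not pass. Mir302b had a log2 ratio of 0.36 (−0.01 to 0.74, exact binomial adjusted p = 0.102) and Mir302d of 0.16 (−0.15 to 0.48, exact binomial adjusted p = 0.454). Mir302c had a ratio of −0.86 (−1.87 to 0.16, exact binomial adjusted p = 0.133), on 17 and 20 reads. Mir302a, Mir302b and Mir302d thus had ratios above 0, and Mir302c had one below 0. The intervals of Mir302a and Mir302c overlap only between 0.10 and 0.16. This overlap does not show that their ratios are alike, and no test compared the ratios of the members. Mir367 had no read and was not tested.

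The median log2 ratio of the 4 tested members was 0.26, beside −0.02 over all tested genes. The summed reads of the cluster gave a log2 ratio of 0.27 (0.08 to 0.46). Of all tested genes, 23.7% had a larger difference in size than Mir302a, 28.8% than Mir302b, 58.6% than Mir302d and 4.80% than Mir302c. In the plot of ratio against level, Mir302a, Mir302b and Mir302d fall among other genes of their level.

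**Figure D3:**
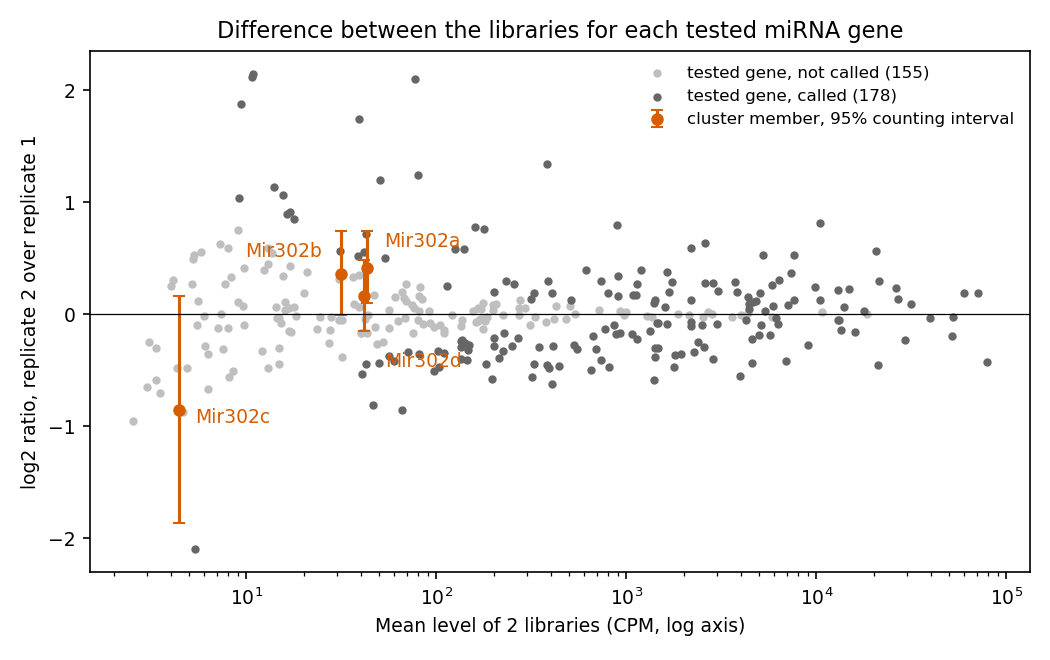
The log2 ratio of replicate 2 over replicate 1 against the mean level (CPM, log axis) for the 333 tested genes, of which 178 were called (dark grey), with the 4 tested cluster members and their 95% counting intervals in orange. The interval of Mir302a lies above 0, and those of Mir302b, Mir302c and Mir302d hold 0.

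The summed marker genes of other cell types moved in both directions between the libraries, untested as sums. The summed blood markers (685 and 746 CPM), neural markers (196 and 210 CPM), eye markers (234 and 305 CPM) and the liver miRNA Mir122 (30.4 and 70.0 CPM) had larger values in replicate 2, as the cluster did. The epithelial (126171 and 97494 CPM), mesenchymal (17053 and 15326 CPM), cartilage (15363 and 14410 CPM) and striated muscle markers (7941 and 5967 CPM) had larger values in replicate 1. The sums follow their most abundant genes, and within the epithelial, mesenchymal and blood lists genes were called in both directions. In the epithelial list, Mir203 and Mir205 were called higher in replicate 1, and Mir200c and Mir141 were called higher in replicate 2. In the mesenchymal list, Mir214 was called higher in replicate 1 and Mir199a-2 higher in replicate 2, and the median log2 ratio of the list was 0.20, opposite in sign to the change of its sum. Both cartilage genes and Mir206 of striated muscle were called higher in replicate 1. In the blood list, Mir451a and Mir223 were called higher in replicate 2, whereas Mir144 was called higher in replicate 1. Mir204 of the eye list and Mir122 were called higher in replicate 2, and the 1 neural gene tested was not called. Of the marker genes, 1 of 3 in the striated muscle list and 4 of 6 in the neural list had at most 3 reads in each library. The part of tissue make-up, or of the 2.15-fold difference in depth, in the ratio of Mir302a was not tested.

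The genes closest to Mir302a in level were named by their distance in log2 CPM over the 2 libraries. They were Mir184, a miRNA of the eye surface (33.8 and 49.5 CPM, distance 0.136), Mir34b of ciliated epithelium (34.5 and 44.0 CPM, distance 0.201), Mir452 (32.1 and 52.8 CPM, distance 0.229) and Mir106a of the Mir17 family (44.2 and 49.6 CPM, distance 0.250). Of these, Mir184 and Mir452 were called higher in replicate 2, with log2 ratios of 0.55 and 0.72 and exact binomial adjusted p of 0.00172 and 2.29e-05. With only 2 libraries, nearness says that the levels are alike and no more.

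The Mir302 seed was then followed through the other miRNAs that carry it. Among 1738 mature sequences of the RefSeq table, 5 had AAGUGCU at bases 2 to 8, those of Mir302b and Mir302d and of Mir291a, Mir294 and Mir295 in the Mir290 cluster. This count leaves out Mir302a, whose hairpin holds the same letters but whose 3′ arm was not used here, and Mir302c, whose listed arm starts 1 base later. These arms are printed to show the seed that the clusters have in common and the different 3′ ends that tell them apart, and capitals mark bases 2 to 8.
miR-302b-3p: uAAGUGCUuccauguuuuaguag
miR-302d-3p: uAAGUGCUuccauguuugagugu
miR-302c-3p: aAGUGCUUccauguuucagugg
miR-294-3p: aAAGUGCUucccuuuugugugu
miR-291a-3p: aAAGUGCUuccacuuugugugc
miR-295-3p: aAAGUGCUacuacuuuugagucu

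The Mir290 cluster, on chromosome 7, was almost without reads. None of its 7 counted genes was detected, 4 had at most 3 reads in each library and 2 of those had no read. Its sum was 19 reads in replicate 1 and 55 in replicate 2, or 6.36 and 8.61 CPM, with a mean of 7.48 ± 1.60 CPM (SD, n = 2). The Mir302 and Mir367 cluster had 17.3 times as many reads in replicate 1 (95% counting interval 10.9 to 29.0) and 15.3 times in replicate 2 (11.7 to 20.5). Mir293 had 6 and 26 reads, Mir294 had 9 and 18, and Mir292 had 3 and 7.

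Every value of Mir302a, Mir302b and Mir302d was thus above the summed level of the Mir290 genes in both libraries, and Mir302c was below it. The genes that share the Mir302 seed there stood at 3.01 and 2.82 CPM for Mir294 and 0.335 and 0.470 CPM for Mir291a, while Mir295 had 0 reads in both libraries. Of the 7 counted genes, 4 share 20 or more bases with another hairpin in either orientation, against 2 of 5 in the Mir302 and Mir367 cluster. Mir291a and Mir291b share 20 bases, Mir290a shares 58 with Mir290b, and Mir292 shares 62 with Mir292b. A match in the opposite orientation can be the other strand of the same place, where a read still maps to 1 place. Whether the Mir290 genes lost more reads than the Mir302 genes was therefore not tested. The comparison of the clusters holds for reads mapped to 1 place. Mir290b and Mir292b are not in the sum.

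The Mir17 seed group, which is linked to proliferation in many tissues, carries the same letters shifted by 1 base, with AAAGUGC at bases 2 to 8 of its 5′ arms. All 6 counted genes were detected, and their sum was 27829 CPM in replicate 1 and 28798 CPM in replicate 2. This was 253.6 and 218 times the level of the Mir302 and Mir367 cluster. Mir17 led with 12059 and 13968 CPM, followed by Mir93 with 6449 and 6068 CPM and Mir106b with 4916 and 4202 CPM. In this group 2 genes were called higher in replicate 2, 2 were called higher in replicate 1 and 2 were not called, with a median log2 ratio of 0.01.

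The seed of Mir367 was carried by listed arms of 7 genes, of which Mir92-1 and Mir92-2 give the same mature sequence. Mir367 was the 1 of these genes with no read. The other 6 form the Mir25 seed group, whose miRNAs come from the Mir17 cluster and its relatives and from single genes. Their arms are printed to show that they have the 7 seed letters of Mir367 with different 3′ ends, again with bases 2 to 8 in capitals.
miR-367-3p: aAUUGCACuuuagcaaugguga
miR-363-3p: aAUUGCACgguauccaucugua
miR-92a-3p: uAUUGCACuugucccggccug
miR-92b-3p: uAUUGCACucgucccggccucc
miR-25-3p: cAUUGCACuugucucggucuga
miR-32-5p: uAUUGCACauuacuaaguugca

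All 6 genes of the Mir25 seed group were detected. They summed to 4015 and 4030 CPM in replicates 1 and 2, a mean of 4022 ± 11.2 CPM (SD, n = 2). Mir92-1 led with 2597 and 2190 CPM, Mir92b followed with 653 and 1133 CPM, and then Mir25 with 489 and 475 CPM. The lowest, Mir363, stood at 42.8 and 41.5 CPM, close to Mir302a and Mir302d. Mir92-1 and Mir92-2 give the same mature sequence and share 22 bases, so their own levels are uncertain.

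In this group 1 gene was called higher in replicate 2, 3 were called higher in replicate 1 and 2 were not called. Mir92b was the gene higher in replicate 2, with a log2 ratio of 0.79 (0.72 to 0.87, exact binomial adjusted p = 1.08e-112). The other genes with the seed of Mir367 were thus counted at 36.6 and 30.5 times the level of the whole Mir302 and Mir367 cluster, while Mir367 had no read. The counts are per hairpin and do not separate its arms, so no level of a single arm is given.

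**Figure D4:**
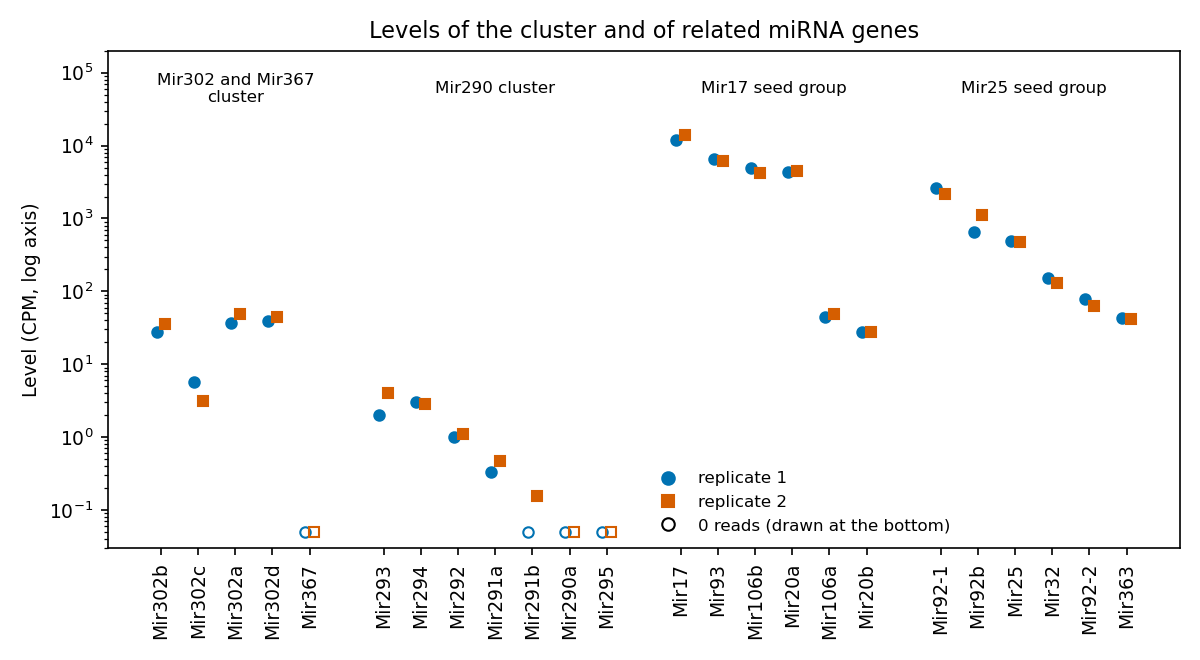
Level of each gene in CPM (log axis) in replicate 1 (circles) and replicate 2 (squares), for the cluster in genomic order and for the Mir290 cluster, the Mir17 seed group and the Mir25 seed group by falling mean, with open symbols for 0 reads. Mir302a, Mir302b and Mir302d lie above all Mir290 genes and below Mir17, Mir93, Mir106b and Mir20a, and Mir367 is the only gene of its seed at 0.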

How the data were processed

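The deposited tables hold unscaled counts of reads for every miRNA gene, 1 table a library, made by the authors on mm10 with GENCODE M4 per the deposited file lists. They count reads on either strand, on the gene's strand and opposite to it. Which aligner and counter they used is not given in the sources used here. Lines that name no gene (unmapped, several places, outside genes) held 49.0% and 54.5% of the reads in replicates 1 and 2 and stayed out of library sizes. Symbols and positions came from GENCODE M21 on the same build, matched by identifier without version (1894 of 1973 genes). Sequences came from RefSeq on GRCm38.p6.

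Counts on either strand were scaled with TMM factors from edgeR 4.0.16 in R 4.3.3, computed on genes with at least 10 reads in each library, and given as CPM. Genes were compared between the libraries with a two-sided exact binomial test of their reads against the ratio of scaled library sizes, with Benjamini-Hochberg adjustment over 333 genes and a threshold of 0.05. The test was checked on data simulated from the real means with counting error only, so the check does not cover differences between pools. DESeq2 1.42.0 gave size factors for an alternative. TMM factors over all genes were computed first and were replaced by those on detected genes after the values were seen, and they are given as an added alternative. The replicates are separate pools of embryos with 1 library each. The p-values set the difference of these libraries against counting error only and hold no spread between pools, and a difference may be technical. Tables were handled in Python 3.11.15 with scipy 1.17.1.

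The rule takes the members by symbol, but the cluster and the gene lists were picked with earlier results of these data known. Named genes were the members, up to 3 genes of each related list with the highest mean level and the 4 genes nearest to Mir302a in level, and marker lists are given as sums. Genes named beyond these share a seed with a member, lie next to the cluster, belong to a marker list or mark the end of a range. They were chosen after their values were seen.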

Additional observations from a re-analysis of the deposited data

How the results depend on the processing

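No paired analysis was possible because both libraries belong to 1 group. The log2 ratio of Mir302a lay between 0.40 and 0.44 and stayed called under 7 alternatives (TMM factors over all genes, an alternative added after seeing the data, total counts, DESeq2 size factors, the most abundant gene Mir203 left out of the totals, gene-strand reads, no filter and a filter of 100 reads), with exact binomial adjusted p from 0.0107 to 0.0365. Mir302b, Mir302c and Mir302d kept their sign and stayed uncalled under each alternative that tested them, and that filter left out Mir302b and Mir302c. With Mir203 left out, Mir302d rose to 45.4 CPM, the Mir17 seed group to 30747 CPM and the Mir25 seed group to 4368 CPM. With gene-strand reads only, these groups stood at 29288 and 4161 CPM. Reads on the opposite strand gave 0 CPM for every member and for all 3 related lists, 0 detected members and 9 called genes, of which 4 favoured replicate 2 and 5 favoured replicate 1. The ratio of Mir302a to Mir302d changed from 1.04 to 0.991 per length. Levels with 1 replicate left out are the values of the other library given above. Depth limits Mir302c (17 and 20 reads) and Mir367 (0 reads) most.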
